A study of Mus musculus with 2 samples.

Results

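The interferon-inducible p200 genes described here are Ifi203, Ifi204, Ifi205, Ifi207, Ifi211, Mndal and Aim2. They are 7 of the 32285 genes listed for both libraries, and they were chosen by name as members of 1 gene family. Proteins of this family carry an N-terminal pyrin domain, which binds other pyrin domains, and usually 1 or more C-terminal HIN domains, which bind DNA. AIM2 senses DNA in the cytosol and joins the adaptor ASC and caspase-1 in an inflammasome, which matures interleukin-1β and opens gasdermin D pores. IFI204 binds DNA in the nucleus and cytosol and works with the adaptor STING in the induction of type I interferon. Many of the genes are themselves switched on by interferon, through the factor ISGF3 and the interferon-stimulated response element in their promoters, and they are used mainly by myeloid and lymphoid cells.

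Cells from the marrow of 1 wild-type male C57BL/6J mouse, aged 3 months, were grown as 2 cultures and read as 2 droplet-based 3′ libraries, 1 per group. Both cultures were kept in hormone-depleted medium for 48 h with M-CSF, which keeps monocytes and macrophages alive, at 5 ng/mL. For the next 24 h both had M-CSF at 100 ng/mL, human TNF at 10 ng/mL and RANKL, the signal for osteoclast formation, at 30 ng/mL. The DHT culture contained 1 nM 5α-dihydrotestosterone, an androgen, in both periods, and the vehicle culture contained ethanol. The adherent cells are labelled as osteoclast precursors, and both libraries carry the same batch label. The libraries held 10798 barcodes with 319430510 UMIs (DHT) and 10630 barcodes with 453802415 UMIs (vehicle), where a UMI stands for 1 captured RNA molecule. They shared 33 barcode sequences, 0.306% and 0.310% of each. After filtering, 7706 DHT and 8581 vehicle cells remained, with medians of 30126 and 50828 UMIs. With 1 library per group no test was possible, so each difference below is between these 2 libraries. Intervals are at 95% and cover counting error only.

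The 13 p200 genes found in these files lie close together on chromosome 1, between positions 173350879 and 174031810 (681 kb, GRCm38, GENCODE M21). Aim2 lies on the plus strand at chr1:173350879-173466040. The other 6 lie on the minus strand, Ifi207 at chr1:173723427-173741747, Ifi204 at chr1:173747293-173766943, Mndal at chr1:173849126-173942491, Ifi211 at chr1:173896345-173913046, Ifi203 at chr1:173920407-173942672 and Ifi205 at chr1:174011998-174031810. The model of Mndal overlaps those of Ifi211 and Ifi203 on the same strand, so reads there can match more than 1 of them. The genes are also near copies of each other in places. Of all 90-base words in the last 500 bases of Ifi211 transcripts, 59.4% occurred in another family gene, mostly Ifi205. The share was 29.7% for Ifi205, 8.06% for Mndal and 1.05% for Ifi203, and 0 for Ifi204, Ifi207 and Aim2. How reads that match more than 1 gene were counted, or whether they were left out, is not given in the sources used here. The counts of Ifi211 and Ifi205, and to a lesser degree of Mndal and Ifi203, are therefore uncertain.

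RefSeq (GRCm38.p6) gave promoters for 6 of the 7 genes, with no entry for Ifi204. They are shown because 5 of the 6 held the core of the interferon-stimulated response element, and Aim2 did not. It was searched on both strands as GAAA, any 2 bases and GAAA. Each line gives bases ending at the transcription start, 5′ to 3′ on the gene's strand, with the match in capitals.
Ifi207, chr1:173741810-173741909: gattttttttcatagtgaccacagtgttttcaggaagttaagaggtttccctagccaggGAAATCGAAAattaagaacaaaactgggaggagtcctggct
Mndal, chr1:173880188-173880287: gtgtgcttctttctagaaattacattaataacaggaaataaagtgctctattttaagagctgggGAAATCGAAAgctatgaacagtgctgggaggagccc
Ifi203, chr1:173942493-173942592: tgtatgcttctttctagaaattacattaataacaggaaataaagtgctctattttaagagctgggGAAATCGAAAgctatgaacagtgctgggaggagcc
Ifi211, chr1:173913047-173913146: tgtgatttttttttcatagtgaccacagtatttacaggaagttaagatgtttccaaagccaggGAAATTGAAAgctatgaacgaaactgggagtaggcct
Ifi205, chr1:174031756-174031905: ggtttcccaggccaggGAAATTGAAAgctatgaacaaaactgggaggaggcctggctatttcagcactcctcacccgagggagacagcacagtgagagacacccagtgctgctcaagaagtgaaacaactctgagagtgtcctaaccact
Aim2, chr1:173420504-173420603, no match: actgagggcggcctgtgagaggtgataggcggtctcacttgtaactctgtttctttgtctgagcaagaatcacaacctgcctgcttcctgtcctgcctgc

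The match began 41 bases before the start in Ifi207, 36 in Mndal, 35 in 1 of the promoters of Ifi203, 37 in Ifi211 and 134 in Ifi205. On the other strand, a further Mndal promoter had a match 54 bases before its start, and Ifi205 had a match 23 bases after the start. Of all 32851 RefSeq promoters of 300 bases, 3.44% held the core. Of 6 other p200 genes with an entry, 4 held it, and Ifi209 and Ifi202b did not. Ifi207, Mndal and Ifi203 shared the letters GAAATCGAAA, found in 0.0487% of promoters, and Ifi211 and Ifi205 shared GAAATTGAAA, found in 0.116%. No member promoter held the gamma-activated site TTCNNNGAA (8.30% of promoters) or the full androgen response element, AGAACA, any 3 bases and TGTTCT (0.00913%). A match is a stretch of letters and not a measured binding site. Ifi207 carries the same 10 letters as Mndal and Ifi203. Its log2 ratio between the libraries was 0.09 over all cells and 0.41 with the mix of cells held equal, as given below. The promoters of Ifi206, Ifi208, Ifi213 and Ifi214 carry these letters too. Ifi209, whose promoter held no match, had a log2 ratio of 2.20 over all cells. Any tie between these letters and the levels was not tested.

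Over all filtered cells, 5 of the 7 genes were at least 1.5-fold higher in the DHT library, and 2, Ifi207 and Aim2, were at near-equal levels. Genes counted as measured had at least 2 CPM, the UMIs of a gene scaled to a common total, in 1 or both libraries and 20 UMIs over both. Of 11165 measured genes, 9.14% were higher by this rule and 0.528% lower, and no p200 gene was lower. The median log2 ratio of the 7 was 1.38, against −0.0035 for all genes. Their summed level was 320.0 CPM with DHT and 216 CPM with vehicle, 1.48-fold. Of all genes past the size rule, 94.5% were higher with DHT, and 84.4% where each cell's CPM had the same weight. Over all cells, more cells that use a gene and more RNA per cell cannot be told apart.

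Among the DNA-binding members of the group that was higher, Ifi204 stood at 41.4 CPM with DHT and 8.61 CPM with vehicle, 4.81-fold (4.63 to 4.99). Ifi203 stood at 32.5 and 12.5 CPM, 2.60-fold (2.52 to 2.69). Ifi211 stood at 17.2 and 4.28 CPM, 4.00-fold (3.79 to 4.22). Ifi205 was scarce, at 2.86 and 0.362 CPM, and had the widest gap, 7.89-fold (6.64 to 9.42). Mndal, a nuclear member linked to slower cell growth, stood at 60.6 and 34.5 CPM, 1.75-fold (1.72 to 1.79). The lower ends of these 5 intervals all lay above 1.5-fold.

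Ifi207 and Aim2 differed by little more than counting error. Ifi207 stood at 119.7 CPM with DHT and 112 CPM with vehicle, 1.06-fold (1.05 to 1.08). Aim2, the inflammasome sensor, stood at 45.9 and 43.1 CPM, 1.06-fold (1.04 to 1.09). Under the alternatives tried over all cells, the log2 ratio of Ifi207 lay between 0.01 and 0.11 and that of Aim2 between 0.01 and 0.32. The highest Aim2 value came from cells thinned to the same number of UMIs, which left out shallower cells.

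**Figure D1:**
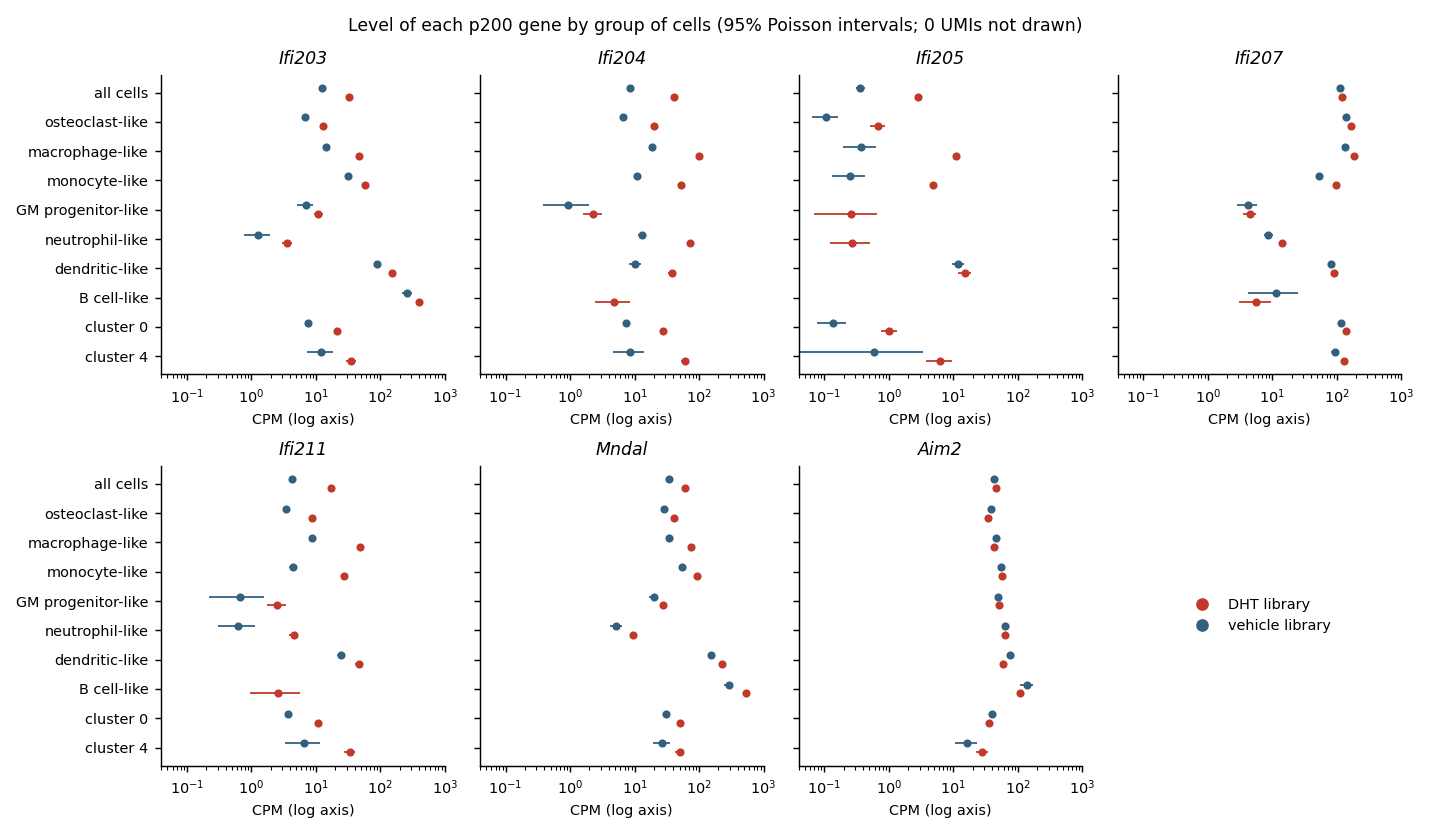
Level of each of the 7 genes in CPM (log axis) in all filtered cells and in 9 groups of cells, DHT library in red and vehicle library in blue, with 95% Poisson intervals and groups at 0 UMIs not drawn. Over all cells the points lie apart for Ifi204 (41.4 and 8.61 CPM) and nearly together for Aim2 (45.9 and 43.1 CPM).

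Other genes of the same locus were measured alongside. Of the other p200 genes, 4 of 4 measured were at least 1.5-fold higher with DHT over all cells, beside 9.14% of all genes. Ifi213 stood at 5.69 and 0.151 CPM (log2 ratio 5.24), Ifi206 at 5.88 and 0.290 CPM (4.34), Ifi214 at 2.14 and 0.265 CPM (3.01) and Ifi209 at 26.4 and 5.74 CPM (2.20). Ifi208 (1.70 and 0.0953 CPM, log2 ratio 4.16) and Ifi202b (0.701 and 0.962 CPM, −0.46) stayed under 2 CPM and were not counted. Of the 67 annotated genes within 1 Mb on either side of the family, 40 were in the files and 6 were measured. Slamf8, which encodes a surface receptor of macrophages, was higher (10.8 and 5.44 CPM, log2 ratio 0.99), none was lower, and the median of the 6 was 0.12. Aim2 and Ifi207 thus stood between or beside p200 genes with much larger ratios.

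**Figure D2:**
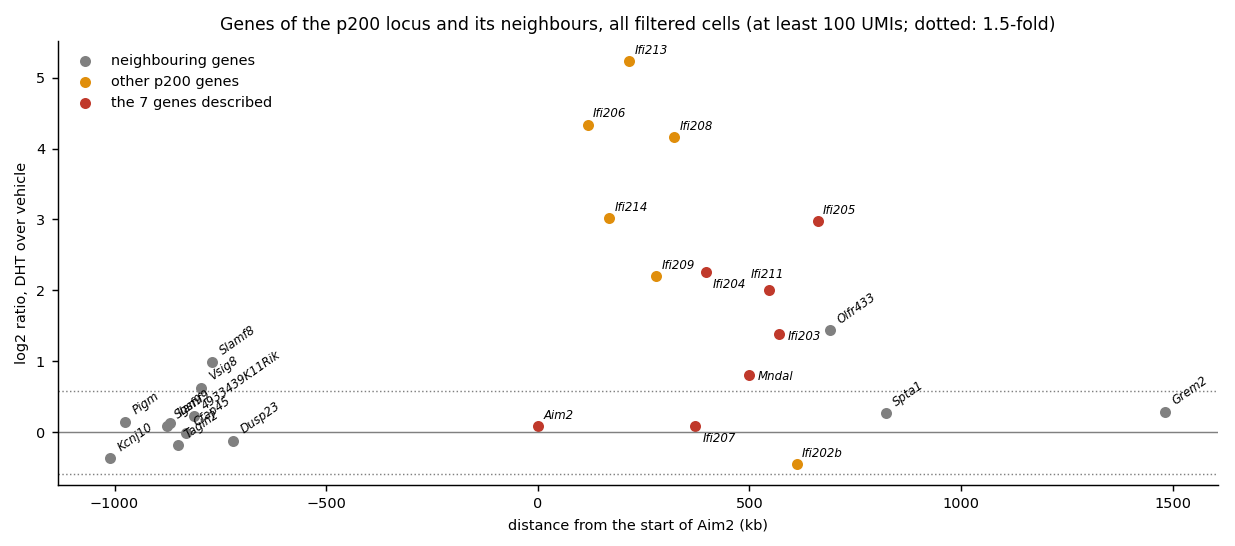
Log2 ratio of DHT over vehicle (all filtered cells) against distance from the start of Aim2 in kb, for the p200 genes and the neighbouring genes with at least 100 UMIs. The other p200 genes Ifi206, Ifi208, Ifi209, Ifi213 and Ifi214 lie above 2, Aim2 and Ifi207 lie near 0, and most neighbouring genes lie under the dotted 1.5-fold line.

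The libraries did not hold the same mix of cells. Cells were put in 16 clusters without use of the interferon and p200 genes, and clusters were named from marker genes. 7 classes held at least 100 cells in each library. Osteoclast-like cells made up 20.9% of DHT cells and 38.1% of vehicle cells, and neutrophil-like cells 24.3% and 12.8%. Macrophage-like cells made up 10.1% and 9.19%, monocyte-like cells 11.7% and 9.80%, granulocyte-monocyte progenitor-like cells 3.15% and 1.70%, conventional dendritic cell-like cells 1.97% and 2.33%, and B cell-like cells 4.41% and 1.32%. 2 clusters stayed unnamed. Cluster 0 (9.42% and 19.8%) was led by histone genes, Gpnmb and Plxna4. Cluster 4 (13% and 4.56%) had medians of only 1500 and 1440 UMIs and was led by Pf4, Ms4a7, Igf1 and Apoe. Osteoclast-like cells held Acp5, the tartrate-resistant acid phosphatase of osteoclasts, at 649 CPM with DHT and 496 CPM with vehicle. Most of it was in cluster 8 (1633 CPM), and clusters 1 and 2 (254 and 255 CPM) were near the unnamed cluster 0 (261 CPM). The samples labelled as osteoclast precursors thus also held neutrophil-like, B cell-like and other cells.

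The mix was set equal by giving each vehicle cluster its share of UMIs, rather than of cells, in the DHT library. This alone moved the log2 level of Ifi203 by 0.37, of Ifi204 by 0.15, of Ifi205 by 0.08, of Mndal by 0.09 and of Ifi211 by −0.05. With the mix held equal, the log2 ratios were 1.01 for Ifi203, 2.12 for Ifi204, 2.90 for Ifi205, 2.05 for Ifi211 and 0.72 for Mndal. For Ifi207 the mix moved the level by −0.32, and with equal mix its ratio was 0.41 rather than 0.09. For Aim2 the mix moved it by 0.14, and with equal mix its ratio was −0.06 rather than 0.09. For Ifi207 the mix and the levels within clusters thus pointed in opposite directions.

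The members differed in which cells held them. In the vehicle library Ifi207 was highest in osteoclast-like cells (138 CPM) and macrophage-like cells (133 CPM), whose intervals overlapped. Dendritic cell-like (80.5 CPM) and monocyte-like cells (53.1 CPM) came next, and neutrophil-like cells (8.78 CPM) and progenitor-like cells (4.15 CPM) were lowest. B cell-like cells (11.6 CPM, 6 UMIs) overlapped the neutrophil-like level. With DHT, macrophage-like cells (189 CPM) stood above osteoclast-like cells (168 CPM).

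Mndal and Ifi203 had the same order of classes as each other in the DHT library. Ifi203 in vehicle cells ran from 260 CPM in B cell-like and 88.7 CPM in dendritic cell-like cells, through 31.7 CPM in monocyte-like and 14.2 CPM in macrophage-like cells, to 1.254 CPM in neutrophil-like cells. Its progenitor-like (6.96 CPM) and osteoclast-like (6.83 CPM) levels overlapped. Mndal ran from 291 CPM in B cell-like and 153 CPM in dendritic cell-like cells, through 55.3 CPM in monocyte-like, 34.1 CPM in macrophage-like, 28.2 CPM in osteoclast-like and 19.8 CPM in progenitor-like cells, to 5.14 CPM in neutrophil-like cells. No neighbours overlapped for Mndal. These 2 genes share part of their gene model, as said above.

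Of the classes, macrophage-like cells held the highest Ifi204 level in both libraries, at 99.7 CPM with DHT and 19 CPM with vehicle. Neutrophil-like cells as a whole came next, at 71.9 and 13 CPM. Their cluster 5 alone stood above every class, at 243 CPM with DHT and 48.8 CPM with vehicle. In the vehicle library the neutrophil-like class interval overlapped those of monocyte-like cells (10.7 CPM) and, through these, dendritic cell-like cells (10.3 CPM). Osteoclast-like cells followed at 19.9 and 6.66 CPM. Progenitor-like cells were at 2.25 and 0.937 CPM, and B cell-like cells at 11 UMIs with DHT and 0 UMIs with vehicle. Ifi205 was, in vehicle cells, mainly a gene of dendritic cell-like cells (12.0 CPM), with at most 0.365 CPM in any other class. Ifi211 was also highest there (24.7 CPM), followed by macrophage-like cells (8.78 CPM). Aim2 varied least over whole classes, 3.63-fold, from 37.8 CPM in osteoclast-like to 137 CPM in B cell-like vehicle cells. Within the neutrophil-like class its vehicle level ran more widely, from 20.2 CPM in cluster 7 to 224 CPM in cluster 5.

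In osteoclast-like cells, 3 of the 6 measured genes were at least 1.5-fold higher with DHT, and none was lower. Of all genes measured in these cells, 1.72% were higher and 0.55% lower. The median log2 ratio of the 6 was 0.71, against 0.05 for all genes. Ifi204 stood at 19.9 CPM with DHT and 6.66 CPM with vehicle, 2.99-fold (2.78 to 3.21). Ifi211 stood at 8.77 and 3.4 CPM, 2.58-fold (2.33 to 2.87), and Ifi203 at 12.8 and 6.83 CPM, 1.87-fold (1.72 to 2.02). These 3 genes were also higher in each of the 3 osteoclast-like clusters, where the log2 ratio of Ifi204 was 1.51, 1.73 and 1.67.

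Mndal (40.4 and 28.2 CPM, 1.43-fold, 1.37 to 1.5) and Ifi207 (168 and 138 CPM, 1.21-fold, 1.19 to 1.24) stayed under the size rule. Aim2 was slightly lower with DHT, at 34.8 and 37.8 CPM, 0.923-fold (0.885 to 0.962). Ifi205, with 61 and 20 UMIs, was too rare to count. Markers of other cells were also higher in the DHT osteoclast-like cells. The 10 neutrophil markers summed to 819.7 and 365 CPM, with 7 higher, and the 9 conventional dendritic cell markers to 209.6 and 90.1 CPM, with 3 higher. None of either list was at 0 in the DHT cells. If the median neutrophil marker there (2.74% of its level in the whole DHT library) were all free RNA, such RNA would make up 6.79% of the Ifi203 level and 5.63% of the Ifi204 level with DHT. This is not an upper limit, since the highest marker was at 9.63%. The part of the other markers in these results was not tested.

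Macrophage-like cells had the highest ratios of the classes for Ifi203, Ifi205 and Mndal. Their intervals overlapped those of neutrophil-like cells for Ifi203, monocyte-like cells for Ifi205, and both neutrophil-like and B cell-like cells for Mndal. Here 5 of 7 genes were at least 1.5-fold higher with DHT and none was lower, where 4.38% of all genes were higher and 2.2% lower. The median log2 ratio was 1.72, against 0.02 for all genes. Ifi204 stood at 99.7 and 19 CPM, 5.26-fold (4.83 to 5.73), and Ifi211 at 49.3 and 8.78 CPM, 5.62-fold (4.97 to 6.38). Ifi203 stood at 46.7 and 14.2 CPM, 3.29-fold (2.96 to 3.65), and Mndal at 75.2 and 34.1 CPM, 2.21-fold (2.06 to 2.37). Ifi205 gave 302 UMIs with DHT and 13 with vehicle, or 10.9 and 0.365 CPM, 29.9-fold (17.2 to 56.8), and its log2 ratio of 4.90 was 3.73 in thinned cells. Ifi207 stood at 189 and 133 CPM, 1.41-fold (1.36 to 1.47), and Aim2 at 42.6 and 45.2 CPM, 0.943-fold (0.874 to 1.02). In this class 7 of 8 macrophage markers were also higher with DHT, with sums of 2699 and 1420 CPM, as were 8 of 10 neutrophil markers, with sums of 1677 and 547 CPM. Their part in the p200 levels was not tested.

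In monocyte-like cells 6 of 7 genes were at least 1.5-fold higher with DHT and none was lower, where 2.76% of all genes were higher and 0.938% lower. It was 1 of the 2 classes, with neutrophil-like cells, in which Ifi207 passed the size rule, at 99.5 and 53.1 CPM, 1.87-fold (1.79 to 1.96). Ifi211 stood at 27.7 and 4.39 CPM, 6.31-fold (5.50 to 7.26), and Ifi204 at 52.5 and 10.7 CPM, 4.89-fold (4.48 to 5.36). Ifi205 stood at 4.83 and 0.246 CPM, 19.6-fold (11.3 to 37.3), from 317 and 13 UMIs. Its log2 ratio of 4.30 ranged from 2.47 (mitochondrial limit of 5%) to 5.55 (mean of cells' CPM) over the alternatives. Ifi203 (57.9 and 31.7 CPM, 1.83-fold) and Mndal (92.6 and 55.3 CPM, 1.67-fold) were closer. The class held 2 clusters that differed in these last genes. The log2 ratios of Ifi203 and Mndal were 1.38 and 1.02 in cluster 6 and 0.24 and 0.37 in cluster 10, which was led in part by histone genes. Aim2 stood at 57.6 and 54.9 CPM, 1.05-fold. Macrophage markers were higher in the DHT cells of this class as well (7 of 8, sums of 428 and 251 CPM), as were 5 of 10 neutrophil markers (3690 and 2450 CPM). Of the progenitor markers 4 of 5 were lower (455 and 810.4 CPM), and of the mast cell or basophil markers 2 of 5 (2.03 and 23.8 CPM). The part of these markers was not tested.

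In neutrophil-like cells 5 of 6 measured genes were at least 1.5-fold higher with DHT and none was lower, where 3.23% of all genes were higher and 3.06% lower. The count fell to 3 at mitochondrial limits of 5 and 20%, at 1000 genes and 2000 UMIs, without the 10% highest Scrublet scores and with classes by z-score, and to 2 at resolution 1.0. Ifi204 had most of the UMIs of these 5, at 71.9 and 13 CPM, 5.51-fold (4.78 to 6.38). Ifi211 (4.56 and 0.627 CPM, 7.28-fold, 3.85 to 15.5) and Ifi203 (3.62 and 1.254 CPM, 2.88-fold, 1.79 to 4.88) rested on 10 and 20 vehicle UMIs. Mndal stood at 9.60 and 5.14 CPM, 1.87-fold, and Ifi207 at 14.3 and 8.78 CPM, 1.63-fold. Their log2 ratios of 0.90 and 0.71 went down to 0.30 (mitochondrial limit of 20%) and 0.16 (no doublet removal), and that of Ifi203 from 1.53 to 0.34 when thinned. Taken from the median macrophage marker in these cells, free RNA would make up 48.8% and 75.4% of the Ifi207 level and 51.0% and 58.2% of the Ifi203 level. For Ifi204 the same estimate was 3.33% and 3.85%. The median markers were at 5.83% and 5.93% of their library level and the highest at 31.6% and 24.6%, so these are not upper limits. The 8 macrophage markers summed to 61.0 and 38.9 CPM in this class, with 4 higher, and their part was not tested.

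Within the neutrophil-like cells, cluster 5, led by Retnlg, S100a9 and S100a8, held the highest Ifi204 level, 243 CPM with DHT and 48.8 CPM with vehicle. Cluster 7, led by Ngp, Camp and Ltf, had 61.6 and 10.7 CPM, and cluster 9, with many Mki67 UMIs, had 4.29 and 0.463 CPM. Ifi207 was 3.5-fold higher with DHT in cluster 5 (42.4 and 12.1 CPM), 1.12-fold in cluster 7 and 0.784-fold in cluster 9. Mndal was at 0.988-fold in cluster 5 (0.520 to 1.96, 32 and 15 UMIs) and 2.31-fold in cluster 7 (1.21 to 4.86, 64 and 11 UMIs). In cluster 9 it was at 2.13-fold (1.58 to 2.90), and these Mndal intervals overlap. By the median macrophage marker, free RNA would make up 36.2% and 39.3% of the Mndal level over the class. Aim2 was also highest in cluster 5, at 204 and 224 CPM, against 24.0 and 20.2 CPM in cluster 7 and 26.9 and 23.4 CPM in cluster 9. Over the class Aim2 was at 63.4 and 64.2 CPM, 0.988-fold (0.916 to 1.07). The 10 neutrophil markers summed to 314418 and 315646 CPM, with none higher or lower.

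The other classes gave fewer UMIs. In dendritic cell-like cells 3 of 7 genes were higher and none lower, where 12.4% of all genes were higher and 6.61% lower. Ifi204 stood at 38.2 and 10.3 CPM (3.72-fold, 2.85 to 4.90), Ifi211 at 46.3 and 24.7 CPM (1.87-fold) and Ifi203 at 152 and 88.7 CPM (1.71-fold). Ifi205, highest in this class with vehicle, was at 15 and 12 CPM, 1.26-fold (0.920 to 1.72), and Aim2 at 59.6 and 74.7 CPM, 0.799-fold (0.694 to 0.918). Of the markers in this class, 5 of 8 for macrophages were higher with DHT (145 and 97.2 CPM), 3 of 10 for neutrophils were higher and 4 lower (531 and 1057 CPM), and 2 of 5 for endothelial cells were higher (43.8 and 10.6 CPM). In B cell-like cells 2 of 3 measured genes were higher and none lower, where 15.1% of all genes were higher and 8.2% lower. These were Mndal (527 and 291 CPM, 1.81-fold, 1.52 to 2.16) and Ifi203 (398 and 260 CPM, 1.53-fold, 1.28 to 1.85), and Aim2 stood at 109 and 137 CPM, 0.795-fold (0.608 to 1.05). Here 8 of 10 neutrophil markers (1179 and 691 CPM), 4 of 6 monocyte markers (113 and 63.7 CPM) and 4 of 8 macrophage markers were higher with DHT, though the macrophage sum was lower (573 and 961 CPM). The part of these markers in either class was not tested.

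In progenitor-like cells 3 of 6 measured genes were higher and none lower, where 6.08% of all genes were higher and 2.75% lower. Of the genes past the size rule there, 68.9% were higher, and 55.9% with TMM scaling. They rested on few vehicle UMIs, 52 for Ifi203, 7 for Ifi204 and 5 for Ifi211, and after thinning or subtraction of free RNA 0 passed the size rule. By the median macrophage marker, free RNA would make up 119.9% of the DHT level of Ifi204 and 176% of that of Ifi207 there, so these levels cannot be told from background. In cluster 0, 4 of 6 measured genes were higher and none lower, where 2.23% of all genes were higher and 0.434% lower, with Ifi204 at 27.5 and 7.44 CPM, 3.69-fold. There 9 of 10 neutrophil markers (1082 and 435 CPM), 4 of 5 progenitor markers (29.9 and 13.4 CPM) and 3 of 6 monocyte markers (149 and 77.9 CPM) were also higher with DHT. In cluster 4, of shallow barcodes, 6 of 7 were higher and none lower, where 12.5% of all genes were higher and 5.65% lower. It was the 1 group in which Aim2 passed the size rule, at 27.9 and 16.1 CPM, 1.73-fold (1.11 to 2.77), from 89 and 27 UMIs. There 9 of 10 neutrophil markers (4289 and 1963 CPM) and 8 of 8 macrophage markers (1789 and 804 CPM) were higher too. Taken from the median neutrophil marker, free RNA would make up 21.6% and 40.8% of the Aim2 level. The part of these markers in the results of either cluster was not tested.

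**Figure D3:**
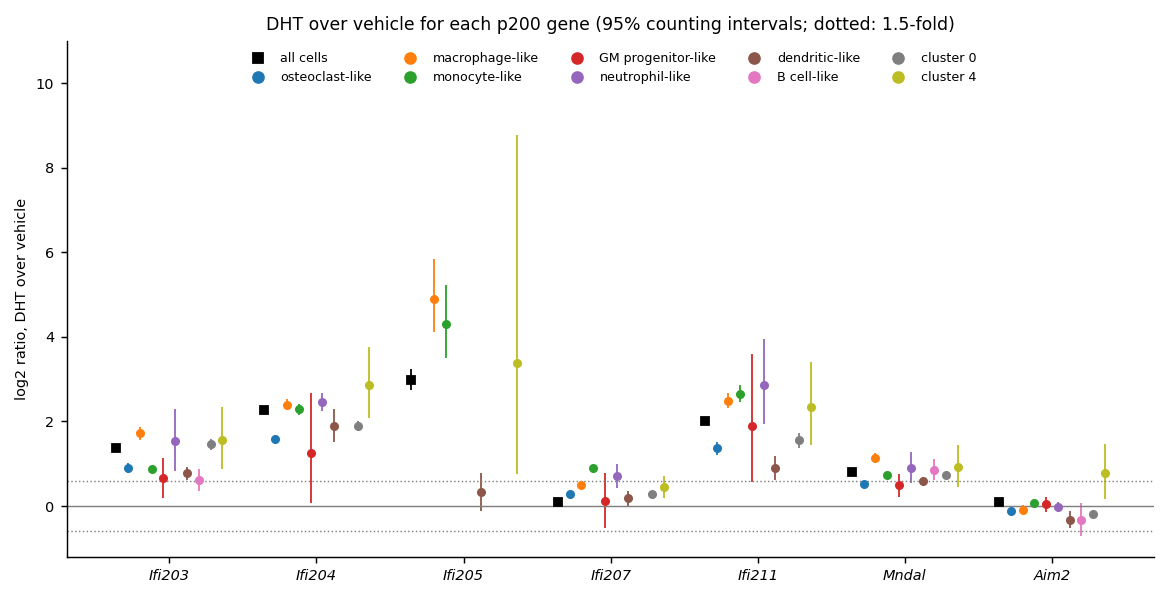
Log2 ratio of DHT over vehicle for each gene in all cells (squares) and in 9 groups of cells (circles), with 95% counting intervals and dotted lines at 1.5-fold. A gene is drawn where it had at least 2 CPM in 1 or both libraries and 20 UMIs over both. Ifi204 and Ifi211 lie above the upper dotted line in every group drawn, and Aim2 lies within the lines except in cluster 4 (log2 ratio 0.79).

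Shares of cells with at least 1 UMI were compared after each cell was thinned to 4714 UMIs, the 10th percentile, since the vehicle cells were deeper. This left out 1060 DHT and 569 vehicle cells. Thinned, 19.4% of DHT cells and 5.05% of vehicle cells held Ifi204, against 42.1% and 26.9% before thinning. For Ifi203 the thinned shares were 13% and 5.75% (33.7% and 26.9% before), and for Ifi211 7.94% and 2.37% (24.6% and 15.4% before). Mndal was found in 21.0% and 13.8% of thinned cells, where the share before thinning went the other way (50.2% and 55.9%). Ifi207 was found in 34.8% and 36.8% (56.9% and 74.7% before), and Aim2 in 21.9% and 20% (58.7% and 72.5% before). At least 1 of the 7 genes was found in 67.6% and 59.9% of thinned cells (84.6% and 90% before).

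As a reference for free RNA, the class with the lowest share is given, since no class is known to lack these genes. Ifi204 was found in 0 of 232 DHT and 0 of 146 vehicle progenitor-like cells, which allows shares of cells with a UMI of up to 1.29% and 2.05% (3 cells of the total). These cells had median depths of 61899 and 44367.5 UMIs before thinning. Ifi203 was found in 0.621% and 0.429% and Mndal in 2.37% and 1.71% of neutrophil-like cells, which had medians of 13216 and 9906.5 UMIs. Ifi207 was found in 3.88% and 0.685% of progenitor-like cells. Aim2 had no class near 0, with its lowest shares 16.2% of DHT and 17.9% of vehicle osteoclast-like cells.

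In thinned osteoclast-like cells the Ifi204 share was 10.9% with DHT (9.42 to 12.6) and 3.65% with vehicle (3.03 to 4.36), against 48.7% and 28.1% before thinning. Ifi207 was found in 57.2% (54.7 to 59.6) and 48.6% (46.9 to 50.3), where nearly all cells held it before thinning (96.1% and 96.3%). Aim2 was found in 16.2% (14.5 to 18.2) and 17.9% (16.6 to 19.2), intervals that overlap. In macrophage-like cells Ifi204 was found in 35.9% and 9.38%, Ifi211 in 24.8% and 4.37% and Ifi205 in 5.33% and 0.514% (before thinning 76.9% and 47.4%, 61.2% and 26.9%, and 16.7% and 1.14%). In neutrophil-like cells Ifi204 was found in 27.0% and 8.68% (36.7% and 11.8% before), and positive cells held 2.41 and 1.43 UMIs of it on average. Both the share of positive cells and the UMIs per positive cell were higher with DHT there.

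**Figure D4:**
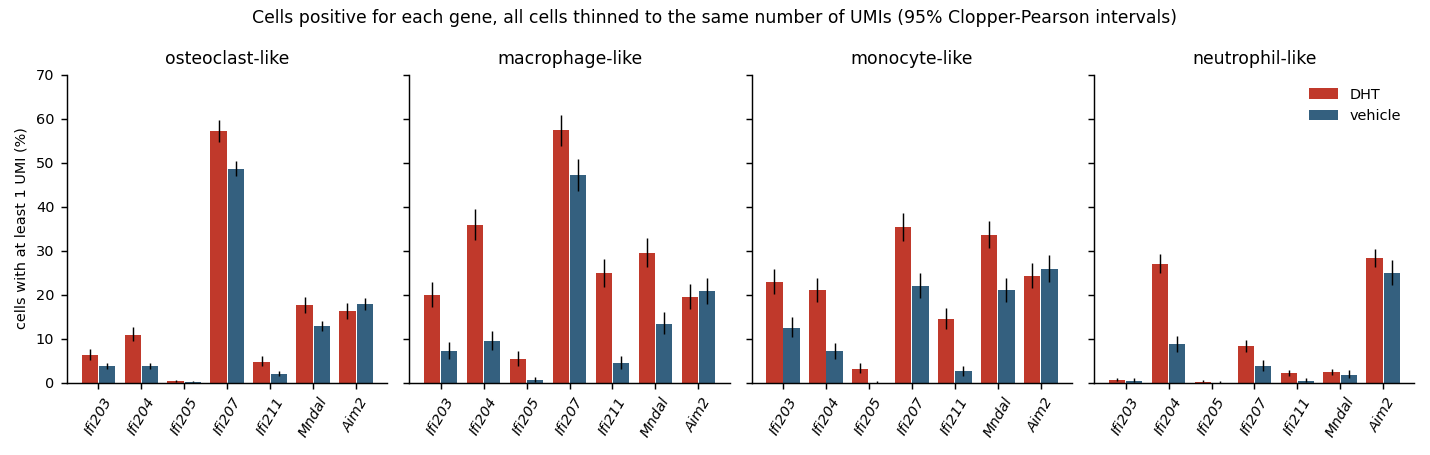
Share of cells (%) with at least 1 UMI of each gene in 4 classes after thinning to 4714 UMIs, DHT in red and vehicle in blue, with 95% Clopper-Pearson intervals. The Ifi204 bars stand apart in all 4 classes (35.9% and 9.38% in macrophage-like cells), and the Aim2 bars have overlapping intervals in all 4.

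Cells with several of the genes at once were more common in the DHT library. At least 2 of the 7 were found in 32.6% of DHT and 19.8% of vehicle cells after thinning. The shares were 56.5% and 26.3% in macrophage-like cells, 42.0% and 23.7% in monocyte-like cells, 29.5% and 20.7% in osteoclast-like cells and 15.3% and 5.25% in neutrophil-like cells. In progenitor-like cells they were 4.31% and 4.79%.

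The genes were also set beside 51 type I interferon-stimulated genes outside the family, summed in each thinned cell. In DHT osteoclast-like cells with 0 to 4 such UMIs, 4.43% held Ifi204, and the share was 7.50% at 5 to 9, 12.5% at 10 to 19 and 22.9% at 20 or more. In vehicle osteoclast-like cells it was 3.16%, 3.97% and 4.09%, and 18.8% in the last bin of only 16 cells. Mndal went from 10.7% to 28.9% and Ifi207 from 49.8% to 67.9% over the same bins of DHT cells. Aim2 did not follow them, with 17.0%, 15.2%, 16.6% and 17.0%.

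In DHT macrophage-like cells Ifi204 was found in 3.45%, 10.2%, 21.8% and 50.5% of cells over the 4 bins, and Aim2 in 17.2%, 20.5%, 21.3% and 18.5%. At 0 to 4 and 5 to 9 of the other UMIs, Ifi204 shares in vehicle macrophage-like cells were 4.71% and 10.2%, with intervals that overlap those of DHT cells. At 10 to 19 they were 21.8% (16.4 to 28.0) with DHT and 12.6% (8.14 to 18.3) with vehicle. In neutrophil-like cells Ifi204 was found in 10.5%, 12.8%, 16.2% and 54.8% of DHT cells. Aim2 there ran the other way, from 45.7% of DHT cells and 36.6% of vehicle cells in the lowest bin to 25.6% and 11.1% in the highest. The neutrophil-like bins pool clusters 5, 7 and 9, where Aim2 was at 204, 24.0 and 26.9 CPM with DHT. How these clusters filled the bins was not tested. More of the DHT cells lay in the upper bins, 30.5% against 2.16% of vehicle cells at 20 or more UMIs over all cells.

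**Figure D5:**
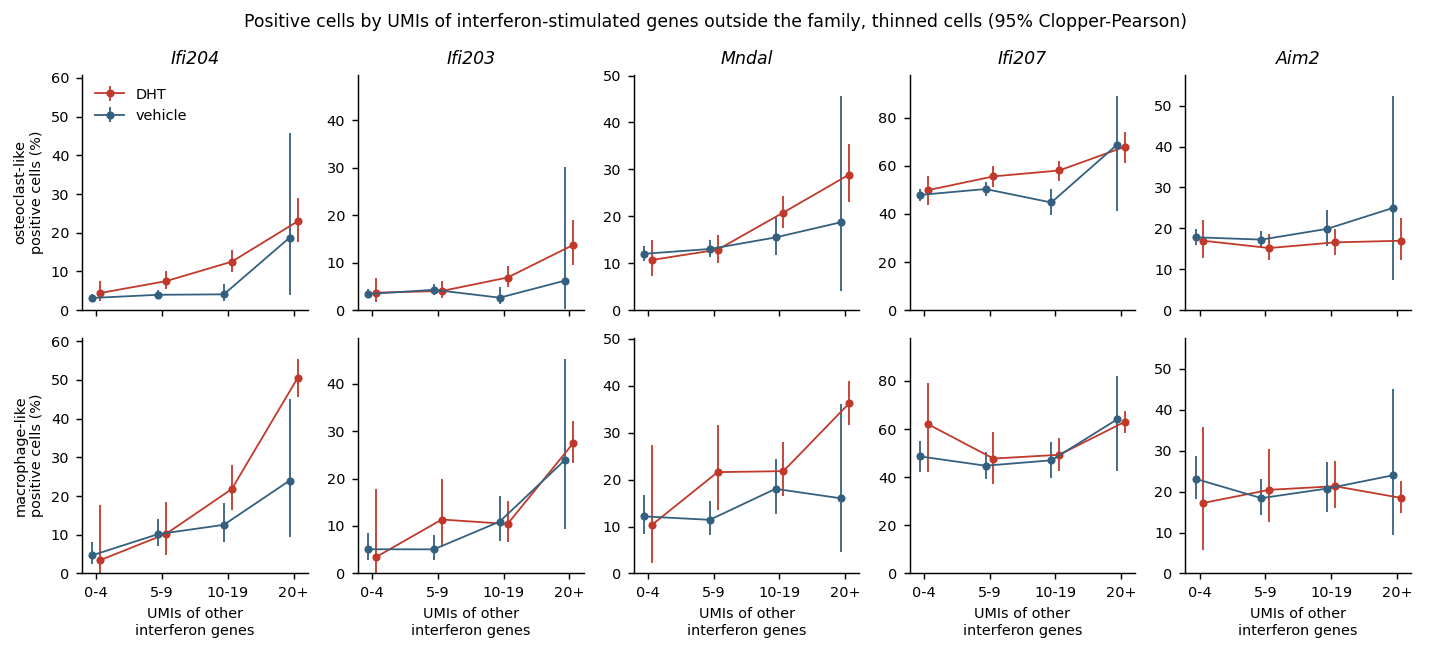
Share of thinned cells (%) with a UMI of Ifi204, Ifi203, Mndal, Ifi207 or Aim2 against the number of UMIs from 51 other interferon-stimulated genes, in osteoclast-like (top) and macrophage-like cells (bottom), with 95% Clopper-Pearson intervals. Ifi204 goes from 3.45% to 50.5% in DHT macrophage-like cells and Aim2 stays between 17.2% and 21.3%. The highest vehicle bins hold only 16 and 25 cells.

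The partners of these proteins were described with gene lists, chosen with earlier results of these data known. Beside the counts here, 9.14% of all measured genes were higher over all cells and 1.72% in osteoclast-like cells. Of 51 other type I interferon-stimulated genes, 50 were at least 1.5-fold higher with DHT over all cells, with a median log2 ratio of 1.82, and 42 of 45 measured in osteoclast-like cells, with a median of 1.64. Among 14 ISGF3 genes and interferon regulators, 7 were higher and none lower over all cells. Usp18, a brake on the interferon receptor, had a log2 ratio of 3.82 and Irf7, which drives interferon genes, 3.42. The receptor chains did not pass the size rule, with Ifnar2 at 0.11 and Ifngr2 at 0.05. In osteoclast-like cells 5 of 14 were higher, with Usp18 at 4.25, Irf7 at 3.38, Irf8 at −0.17 and Ifnar2 at −0.12.

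Of 12 genes of the AIM2 inflammasome and of pyroptosis, 3 were higher and none lower over all cells, where 9.14% of all genes were higher, with a median of 0.21. They were Il1b, which encodes interleukin-1β (1.70), Nlrp3, another inflammasome sensor (0.90), and Il18 (0.86). The lowest were Ninj1, which ruptures the membrane (−0.29), and Gsdmd, the pore former (−0.23). Pycard, which encodes ASC, was at 190 and 198 CPM, and Casp1 at 27.2 and 24.5 CPM. In osteoclast-like cells 1 of 10 measured was higher, beside 1.72% of all genes, Il1b (1.18, at 2.28 and 1.00 CPM), and the lowest were Pycard (−0.42) and Nlrp3 (−0.25). Neutrophil-like cells, in which cluster 5 was led in part by Il1b, made up a larger share of the DHT library, and their part in the values over all cells was not tested.

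Of 13 measured genes of the cGAS-STING pathway and of DNA handling, 2 were higher and none lower over all cells, beside the 9.14% of all genes, with a median of 0.03. They were Zbp1, a sensor of nucleic acids in the Z form (3.25), and Ikbke, a kinase of IRF3 and IRF7 (0.74). Ddx41 (−0.22) and Banf1 (−0.13) were lowest. Cgas, the enzyme that makes the STING ligand, was at 41.8 and 36.1 CPM, and STING itself, listed as Tmem173, at 8.85 and 6.43 CPM. In osteoclast-like cells Zbp1 was the 1 higher gene of 13 (3.88), beside 1.72% of all genes. Samhd1 (0.42) came next, and Ikbke (−0.18) and Tmem173 (−0.11) were lowest. Of 10 growth and differentiation partners named for p200 proteins, 1 was higher over all cells and 0 in osteoclast-like cells.

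Genes whose pattern was most like each member were found over 14 points, 7 classes in each of the 2 libraries, among 6718 genes. The points share libraries and depth, and the correlations are descriptions. Ifi204 was most like Oas3 (r = 0.93), Ifitm3 (0.91) and Tfe3 (0.91), of which Oas3 and Ifitm3 are interferon-stimulated genes. Ifi207 was most like Lpl (0.99), Tnfrsf11a (0.98), which encodes the RANKL receptor, and Fam129b (0.98). Aim2 was most like Stat5b (0.96), Btg2 (0.95) and Ccni (0.95). Ifi203 was most like Mta3, Cdyl and Zfp277 (all 0.94), and Mndal like Zfp277 (0.96), Slc15a4 (0.96) and Tbl1x (0.95). Ifi205 was most like Psme2 (0.86), Ly6a (0.85) and Tmem219 (0.85), and Ifi211 like Sgk3 (0.93), Arhgap1 (0.91) and Chmp4b (0.90). For the sum of the 7, Trim26, Phc2, Dop1a, Ncoa3 and Epb41l2 were closest, between 0.93 and 0.94. Among the members, Ifi203 and Mndal were closest (0.99), then Ifi205 and Ifi211 (0.90), both pairs that share sequence or gene model, and Ifi207 and Aim2 were least alike (−0.53).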

How the data were processed

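The authors deposited, for each library, raw UMI counts per gene and barcode, made with Cell Ranger 7.0.1 per the file headers. GRCh38 and mm10 are the builds in the submitters' processing notes, which give them no role. Whether intronic reads or strand were used is not given in the sources used here. The members, lists and rules were chosen with earlier results of these data known.

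A barcode was kept with 300 or more genes, 800 or more UMIs and no more than 10% mitochondrial UMIs. Scrublet marked 205 (2.59%) and 165 (1.89%) as doublets, which were removed. Clusters came from scanpy 1.11.5 (2000 variable genes without the interferon and p200 lists, 30 principal components, 15 neighbours, Leiden resolution 0.6). To be named, a cluster needed 3 or more markers, and no less than 50% of the type's list, above 2 times the median cluster (10 CPM added to both), and no other type with more markers in its top 10 genes. Classes may therefore differ from the authors' own. A median under 2000 UMIs, or leading genes of another type, left a cluster unnamed. Counts were summed over cells and divided by their total. CPM have exact Poisson intervals, ratios exact conditional binomial intervals and shares Clopper-Pearson intervals. Free RNA was estimated from the median marker of another class, relative to its library level. Motifs were searched in RefSeq promoters, and gene positions from GENCODE M21. The steps were tested on simulated counts. edgeR 4.0.16 gave TMM factors only.

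Named genes are all members, the other p200 genes, the 2 highest and 2 lowest of each other list in all and in osteoclast-like cells, and the 3 most like each member (5 for the sum). Pycard, Casp1, Cgas, Tmem173 and Slamf8 were chosen after their values were seen. Lists for cell growth, differentiation and stress are in the closing section. Alternatives were other scalings, filters, doublet rules, clusterings, size rules and thinning depths.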

Additional observations from a re-analysis of the deposited data

Results flagged for a closer look

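The ratio of Aim2 pointed in different directions in different groups of cells, with counting intervals on either side of 1. It was 1.05 in monocyte-like cells and 1.73 in cluster 4, against 0.923 in osteoclast-like cells, 0.884 in cluster 0 and 0.799 in dendritic cell-like cells. In monocyte-like cells its log2 ratio of 0.07 was −0.14 in thinned cells. The difference between these groups was not tested, and each rests on 1 library per group.

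The 3092 DHT and 2049 vehicle barcodes that the cell filter and doublet removal left out also held p200 UMIs. In these barcodes the DHT library was higher for Ifi204 (6.06-fold), Ifi205 (15-fold, from 44 and 3 UMIs), Ifi211 (5.8-fold), Ifi203 (2.26-fold) and Mndal (1.78-fold). Ifi207 was at 1.28-fold and Aim2 at 0.959-fold there.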

How the results depend on the processing

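No paired analysis was possible because each group has 1 library. Of 736 recomputed member ratios, 595 stayed within their counting interval, 139 moved out of it and 2 of at least 1.5-fold reversed. The reversed ones were Ifi211 in progenitor-like cells (log2 −0.67 thinned, 1.90 as reported) and Ifi207 in B cell-like cells (0.57 thinned, −1.02). Ratios under 1.5-fold that changed sign were not counted as reversed. Among them were Mndal in progenitor-like cells (−0.31 thinned, 0.49 as reported) and Aim2 in monocyte-like cells (−0.14 thinned, 0.07). For shares of positive cells, the DHT minus vehicle difference was 7.18 points for Mndal but −5.68 without thinning. For Aim2 it was 1.83 points, −3.97 at the 25th percentile and −13.8 without thinning, and for any member 7.64, −2.67 and −5.42. The no-thinning setting was chosen after seeing the data. A minimum of 20 CPM left 3 genes higher over all cells, 0 in osteoclast-like cells (Ifi204 was at 19.9 CPM), 0 in progenitor-like cells and 1 in neutrophil-like cells, since fewer genes were counted. A 2-fold rule left 3 higher in monocyte-like, 3 in neutrophil-like, 1 in dendritic cell-like and 0 in B cell-like cells, and a rule looser than 1.5-fold gave 5 in dendritic cell-like cells, with 1 lower there and 1 in B cell-like cells. In progenitor-like cells 0 were higher when thinned or after subtraction of free RNA, 5 at a 5% mitochondrial limit or without the 10% highest Scrublet scores, and 1 was lower without doublet removal. In neutrophil-like cells 3 were higher at mitochondrial limits of 5 and 20%, at 1000 genes and 2000 UMIs, without the highest Scrublet scores and with classes by marker z-score, and 2 at resolution 1.0. In dendritic cell-like cells 1 was higher without the highest Scrublet scores and 1 lower when thinned. In B cell-like cells 1 was higher after subtraction of free RNA, and 1 lower with 1 UMI in each library, without doublet removal and by z-score. The cause was not tested for these class counts. Of all genes, 1021 were higher over all cells, against 373 at 20 CPM, 586 at 2-fold, 1648 with the looser rule and 4990 with 1 UMI in each library, and 59 were lower, against 4 at 2-fold, 12 at 20 CPM, 102 with TMM, 113 with median of ratios, 195 by the mean of cells' CPM, 276 when thinned, 427 with the looser rule and 1118 with 1 UMI. In osteoclast-like cells 181 were higher and 58 lower, with 66 to 2504 and 4 to 1618 under the same settings. The higher genes were 94.5% of those called, but 84.4% by the mean of cells' CPM. In progenitor-like cells the share was 68.9%, but 55.9% with TMM and 57.4% with median of ratios. No scaling moved the median log2 ratio of all genes by over 0.1. Small classes (113 vehicle B cell-like and 146 progenitor-like cells) limit what depth can show.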

Other observations

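3 further lists were described beside the p200 genes. Of 15 macrophage and osteoclast differentiation genes, 2 were at least 1.5-fold higher over all cells, Mmp9 (log2 ratio 0.87) and Irf8 (0.62), and none was lower, with a median of −0.18. Of all measured genes, 9.14% were higher over all cells and 1.72% in osteoclast-like cells. In osteoclast-like cells 1 of 15 was higher. Of 8 measured immediate early and dissociation stress genes, 1 was higher over all cells, Egr1 (0.87), and 0 of 7 in osteoclast-like cells. Of the growth and differentiation partners, Runx2 (0.61) was the higher one over all cells.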
